A study of Homo sapiens with 24 samples.

Results

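The genes described here were 5 receptors of the tumour necrosis factor (TNF) family, TNFRSF1A, TNFRSF1B, TNFRSF12A, TNFRSF19 and TNFRSF21, the NF-kB subunits NFKB1, NFKB2, RELA and RELB, and the NF-kB inhibitor NFKBIA. They were chosen by symbol through their Ensembl identifiers, and they make up 10 of the 58676 gene identifiers counted. All 10 passed the filter on low counts in each comparison. HSJD-DIPG-007 is an established line of diffuse midline glioma (DMG) cells, grown here as spheroids, and every library came from this line, with H3F3A K27M, ACVR1 R206H and PIK3CA MIS as its labelled genotype. Cultures received vehicle or LLY-283, an inhibitor of the arginine methyltransferase PRMT5, at the concentration that inhibits growth by 40% (GI40). Polyadenylated RNA was sequenced at the start of treatment (day 0) and at 6 later times up to day 10, giving 12 libraries from each treatment group. Each group had 3 libraries on days 0 and 5, 2 on day 7 and 1 on each of days 1, 2, 3 and 10. The labels give a single dose, while the methods state that medium with another dose was added after day 5.

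TNF family ligands bind receptors on the cell surface, and many of these receptors recruit adaptors of the TRAF and death domain families. In the canonical NF-kB pathway these adaptors activate the IkB kinases, IkB proteins are degraded, and dimers such as RELA with the NFKB1 product p50 enter the nucleus. In the alternative pathway the NFKB2 product is processed to p52 and acts with RELB. NFKBIA is itself a well known target of NF-kB, and its new protein ends the response. In glioma, TNF and NF-kB signalling has been studied mostly for survival, inflammation and mesenchymal-like expression.

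The promoters of the genes that differed most, or that are known to be under NF-kB control, are shown to place the NF-kB consensus (the kappa B motif of 10 bases) near their starts. Each window covers 250 bases before and 50 after a RefSeq transcript start on GRCh38.p14, reads 5′ to 3′ along the strand of the gene, and has matches to the consensus on either strand in capitals. The windows are TNFRSF1B at chr1:12166741-12167040 (plus strand), TNFRSF21 at chr6:47309856-47310155 (minus strand), NFKB1 at chr4:102501109-102501408 (plus strand) and NFKBIA at chr14:35404700-35404999 (minus strand).
TNFRSF1B: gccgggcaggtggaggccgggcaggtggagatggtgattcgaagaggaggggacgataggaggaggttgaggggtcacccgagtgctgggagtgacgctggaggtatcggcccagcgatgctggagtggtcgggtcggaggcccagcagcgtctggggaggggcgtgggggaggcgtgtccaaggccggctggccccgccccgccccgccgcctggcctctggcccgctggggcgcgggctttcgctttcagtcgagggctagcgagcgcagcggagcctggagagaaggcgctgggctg
TNFRSF21: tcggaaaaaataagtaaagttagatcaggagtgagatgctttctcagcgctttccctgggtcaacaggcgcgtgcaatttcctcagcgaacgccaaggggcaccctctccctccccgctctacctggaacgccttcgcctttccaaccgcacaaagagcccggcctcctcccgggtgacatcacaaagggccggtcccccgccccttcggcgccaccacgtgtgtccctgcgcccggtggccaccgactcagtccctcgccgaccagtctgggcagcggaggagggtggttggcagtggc
NFKB1: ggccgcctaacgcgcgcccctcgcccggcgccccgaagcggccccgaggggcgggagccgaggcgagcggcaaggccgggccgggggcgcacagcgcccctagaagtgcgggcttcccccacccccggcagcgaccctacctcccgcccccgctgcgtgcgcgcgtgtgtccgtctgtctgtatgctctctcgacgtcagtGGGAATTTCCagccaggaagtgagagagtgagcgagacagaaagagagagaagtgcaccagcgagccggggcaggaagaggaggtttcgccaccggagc
NFKBIA: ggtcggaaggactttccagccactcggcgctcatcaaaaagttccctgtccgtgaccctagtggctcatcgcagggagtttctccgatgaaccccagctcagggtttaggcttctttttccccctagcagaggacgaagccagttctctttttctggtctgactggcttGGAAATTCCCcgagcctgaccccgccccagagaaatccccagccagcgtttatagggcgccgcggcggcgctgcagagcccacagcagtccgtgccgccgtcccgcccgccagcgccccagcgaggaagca
No match lay in the TNFRSF1B and TNFRSF21 windows. The NFKB1 window shown held 1 match at -49 to -40 from the start, and the NFKBIA window held 1 at -81 to -72 on the opposite strand. A further NFKB1 window, not shown, held no match. Of the 10 genes, 8 had a window and 3 of these had a match, the third being NFKB2, where 4 matches in one window partly overlapped and another window held 2. Matches lay in 4 of the 13 windows of these genes and in 5.91% of the 35116 windows of all genes. A match is a run of letters and was not tested as a binding site.

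TNFRSF1B lies on chromosome 1 at 12166991 to 12209228 (plus strand), TNFRSF21 on chromosome 6 at 47231532 to 47309905 (minus strand) and NFKBIA on chromosome 14 at 35401079 to 35404749 (minus strand). Exons of TNFRSF1B overlap those of MIR7846 by 48 bases on the same strand, and those of TNFRSF12A and RELA overlap CLDN6 by 40 and RELA-DT by 103 bases on the other strand. Reads in these stretches may be split between the genes.

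Library totals lay between 13835205 and 23190369 estimated counts, with a median of 18688160.5. Levels are given as CPM, the share of a library's counts scaled to a common size, with TMM factors over the 24 libraries. The libraries of a group are technical repeats according to the study, so p-values measure the spread between these libraries and need not include that between cultures. The 2 libraries labelled day 7 repeat 2 stood apart, each lying nearer to the opposite treatment group, so day 7 values are given by library. Their labels may be crossed, which was not tested, and they are used as labelled. This bears on each value that rests on them, and the tests over days 0 to 7 are also given without them. Of 10 markers of DMG cells, 9 averaged 1 CPM or more, and SOX10 lay under 1 CPM. Microglia and immune markers summed to between 0.559 and 2.27 CPM, and TYROBP had no count in any library. Endothelial markers summed to between 9.75 and 28.8 CPM, and fibroblast markers to between 254 and 489 CPM.

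Per transcript length, TNFRSF1A was the most abundant of the 10 genes. In vehicle at day 0, TNFRSF1A, the widely expressed receptor with a death domain, had 85.3 ± 2.46 CPM per kb of canonical transcript (SD, n = 3). TNFRSF12A, the receptor for the ligand TWEAK, had 29.6 ± 1.46 CPM per kb, and RELA had 28.7 ± 1.31 CPM per kb. The libraries of TNFRSF12A and RELA overlapped on this scale, so their order is not resolved. TNFRSF1B, the second TNF receptor, which lacks a death domain, followed at 20.4 ± 0.709 CPM per kb. NFKBIA with 11.5 ± 0.902 CPM per kb and TNFRSF21 with 11 ± 0.200 CPM per kb also overlapped. NFKB1 had 10.2 ± 0.535 CPM per kb and TNFRSF19 had 8.64 ± 0.342 CPM per kb. The subunits of the alternative pathway were lowest, with NFKB2 at 5.01 ± 0.140 CPM per kb and RELB at 2.98 ± 0.395 CPM per kb. At day 5, TNFRSF1B followed TNFRSF12A with vehicle, at 15.0 ± 1.06 CPM per kb, where its libraries overlapped those of NFKB1. With LLY-283 it lay between TNFRSF21 and TNFRSF19, at 9.04 ± 0.217 CPM per kb, with TNFRSF21 at 12.2 ± 0.513 CPM per kb.

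**Figure D1:**
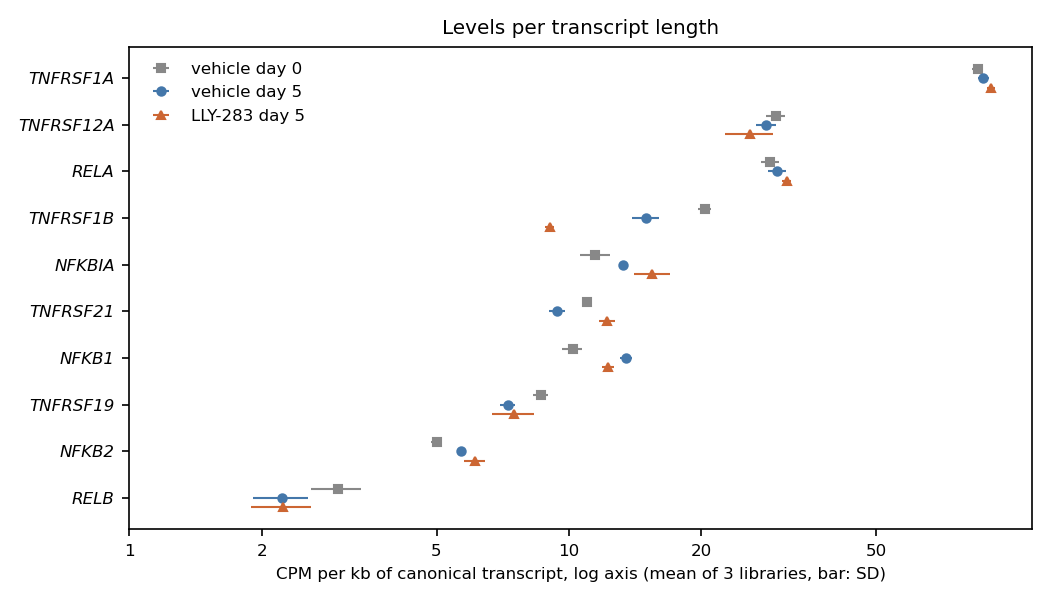
Mean level of the 10 genes in CPM per kb of canonical transcript (x axis, log scale) in vehicle at day 0 (squares), vehicle at day 5 (circles) and LLY-283 at day 5 (triangles), with bars for the SD of 3 libraries. TNFRSF1A is highest at 85.3 and RELB lowest at 2.98 in vehicle at day 0, and TNFRSF1B moves from 20.4 to 15.0 with vehicle and to 9.04 with LLY-283 at day 5.

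The first question was how treatment with LLY-283 changed these genes at day 5, the day with replicates on which the study tested its treatment groups. TNFRSF1B was lower and TNFRSF21 higher with LLY-283 than with vehicle, and the other 8 genes did not pass the test. TNFRSF1B stood at 59.4, 51.6 and 54.4 CPM in the vehicle libraries and at 34.2, 32.6 and 33.2 CPM in the LLY-283 libraries. Every LLY-283 library lay below every vehicle library, and the LLY-283 libraries lay within 2 CPM of each other. The log2 fold change was -0.70 (SE 0.057), a change of -38.6%, with an adjusted p of 1.4e-10 (edgeR quasi-likelihood test, Benjamini-Hochberg over 16491 genes). The study lists TNFRSF1B as downregulated in its RNA sequencing. By RT-qPCR, a separate assay of RNA in this line with LLY-283, the study lists it as unchanged. That assay used GI40 and a higher dose, several days and independent repeats, whereas the sequenced libraries of a group are technical repeats.

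TNFRSF21, also called death receptor 6 and studied in neurons and oligodendrocyte precursors, differed the other way. It stood at 35.3, 32.6 and 33.6 CPM in the vehicle libraries and at 45.1, 44.1 and 41.5 CPM in the LLY-283 libraries. The groups did not overlap, with all LLY-283 libraries higher. The log2 fold change was 0.39 (SE 0.056), a difference of 30.9%, with an adjusted p of 3.1e-06. Mean levels at day 0 and day 5 were 39.5 and 33.8 CPM with vehicle, and 41.5 and 43.6 CPM with LLY-283.

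NFKBIA, which holds NF-kB dimers in the cytoplasm, was just outside the threshold. Its vehicle libraries had 20.4, 20.8 and 21.0 CPM and its LLY-283 libraries 26.3, 24.1 and 21.8 CPM. The groups did not overlap, but the lowest LLY-283 library lay close to the vehicle libraries. The log2 difference was 0.24 (SE 0.073, adjusted p = 0.011), and the adjusted p ran from 0.0043 to 0.16 over 15 alternative settings, 4 of which called it, among them the fit without LLY-283 repeat 3 (adjusted p = 0.0043).

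The remaining receptors differed little at day 5. TNFRSF1A had a log2 difference of 0.08 (SE 0.036, adjusted p = 0.068), from 193, 185 and 194 CPM in vehicle and 203, 196 and 196 CPM in LLY-283 libraries. Its groups did not overlap, but the nearest libraries were only about 2 CPM apart. TNFRSF12A had a log2 difference of -0.09 (SE 0.082, adjusted p = 0.46) and TNFRSF19, an orphan receptor of neural and epithelial progenitors, one of 0.07 (SE 0.067, adjusted p = 0.45). The libraries of both genes overlapped between groups.

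None of the NF-kB subunits passed the test at day 5. NFKB1, which encodes the precursor of p50, had 57.0, 54.3 and 53.4 CPM in vehicle and 50.3, 51.4 and 48.3 CPM in LLY-283 libraries. The LLY-283 libraries were all lower, with a log2 difference of -0.11 (SE 0.050, adjusted p = 0.084). RELA, the main transactivating subunit, had a log2 difference of 0.10 (SE 0.044, adjusted p = 0.093), and NFKB2, the precursor of p52, one of 0.14 (SE 0.079, adjusted p = 0.19). RELB, with a log2 difference of 0.03 (SE 0.16, adjusted p = 0.91), had the widest error of the 10 genes and the fewest reads, between 66 and 160 counts a library.

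In all, 2 of the 10 genes were called at day 5, beside 26.1% of all genes tested. Of these, 1 was higher and 1 lower, beside 12% of all genes called higher and 14.1% called lower. The groups did not overlap for 5 of the 10, beside 46.3% of all genes. The median log2 fold change was 0.08 over the 10 genes and 0.02 over all genes tested. Of all genes called at day 5, 46.2% were higher with TMM scaling and 55.3% with scaling by library size alone. Marker sums of other cell types and of DMG cells moved beside these results. Endothelial markers summed to 9.75, 11.8 and 11.9 CPM in the vehicle libraries and to 12.9, 15.0 and 13.1 CPM in the LLY-283 libraries, without overlap. DMG cell markers summed to 6190, 6060 and 6240 CPM with vehicle and to 5880, 5760 and 5830 CPM with LLY-283, also without overlap. Of the 8 endothelial markers, PECAM1 and ESAM averaged 1 CPM or more, and VWF and CDH5 reached at most 0.297 and 0.114 CPM. The part of either sum in the changes of TNFRSF1B and TNFRSF21 was not tested. The fibroblast marker sum overlapped between the groups, lying from 280 to 437 CPM with vehicle and from 386 to 402 CPM with LLY-283. It was highest in vehicle repeat 3, where COL1A1 reached 53.9 CPM against a median of 7.98 CPM over all libraries. Without that library, TNFRSF1B had a log2 fold change of -0.72 (adjusted p = 2.7e-08) and TNFRSF21 one of 0.38 (adjusted p = 7.6e-05). In these bulk libraries, fewer cells of a type and less RNA per cell cannot be told apart.

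**Figure D2:**
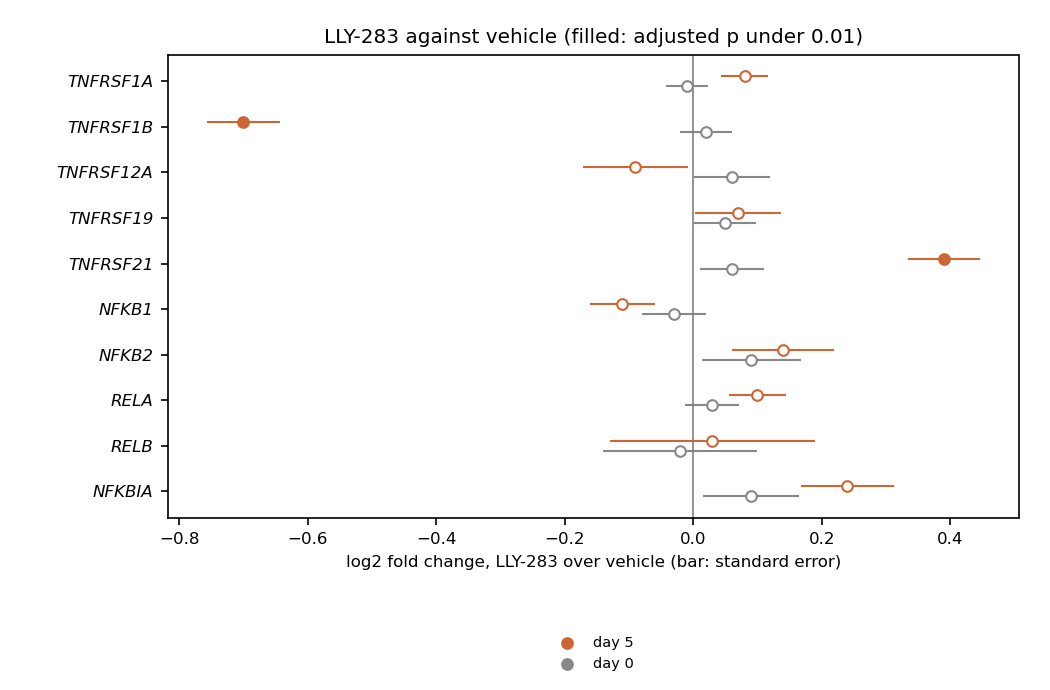
Log2 fold change of LLY-283 over vehicle for the 10 genes at day 5 (orange) and day 0 (grey), with bars for the standard error and filled points for an adjusted p under 0.01. At day 5, TNFRSF1B is at -0.70 and TNFRSF21 at 0.39, and all day 0 points lie between -0.03 and 0.09.

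Day 0 gave the same contrast as a background. TNFRSF1B had 73.1, 78.1 and 74.9 CPM in vehicle and 79.3, 73.7 and 78.6 CPM in LLY-283 libraries, and TNFRSF21 had 39.6, 40.3 and 38.7 CPM in vehicle and 41.6, 43.7 and 39.3 CPM in LLY-283 libraries. The libraries of the groups overlapped for each of the 10 genes, against 11.9% of all genes whose groups did not overlap. Log2 differences lay between -0.03 and 0.09. edgeR called 0 of the 10 genes, and 0.0169% of all genes, and DESeq2 also called 0 of the 10. By edgeR, 0 of the 10 had an unadjusted p under 0.05, beside 1012 of the 17780 genes tested.

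Days 1 to 3 had a single library of each treatment group a day. At day 1, TNFRSF1B had 66.8 CPM in the vehicle library and 66.1 CPM in the LLY-283 library, followed by 53.9 and 51.1 CPM at day 2 and 50.2 and 34.4 CPM at day 3. The level thus fell in both groups up to day 2, and the LLY-283 library was the lower of the pair by 0.54 on the log2 scale at day 3. TNFRSF21 did not have this order at day 3, at 36.2 CPM in the vehicle library against 32.8 CPM in the LLY-283 library. With the 3 days taken as pairs, the log2 difference was -0.18 (SE 0.095, adjusted p = 0.39) for TNFRSF1B and lay between -0.11 and 0.11 for the other genes. edgeR called 0 of the 10 genes, where it called 0 of all 17240 genes tested. An unadjusted p under 0.05 was found for 0 of the 10, beside 2879 of the 17240. DESeq2 called 0 of the 10 and 12 of all genes.

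At day 7, TNFRSF1B, TNFRSF19, TNFRSF21, NFKB1 and NFKBIA had the order of day 5 in the libraries labelled repeat 1 and the opposite order in those labelled repeat 2. TNFRSF1B had 62.8 CPM in the vehicle library and 36.9 CPM in the LLY-283 library of repeat 1, and 42.5 and 64.8 CPM in repeat 2. TNFRSF21 had 40.5 and 46.8 CPM in repeat 1, and 44 and 36.8 CPM in repeat 2. NFKBIA had 20.4 and 24.4 CPM in repeat 1, and 28.2 and 22.5 CPM in repeat 2. TNFRSF1A, TNFRSF12A, NFKB2, RELA and RELB were lower with LLY-283 in both repeats as labelled. Their log2 differences lay between -0.31 (RELB, repeat 2) and -0.02 (TNFRSF1A, repeat 1). At day 5, TNFRSF1A, NFKB2, RELA and RELB had differences the other way that were not called. At day 10, with a single library a group, TNFRSF1B was again lower with LLY-283, at 34.6 against 53.1 CPM, while TNFRSF21 had 48.4 CPM with LLY-283 and 51.0 CPM with vehicle.

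**Figure D3:**
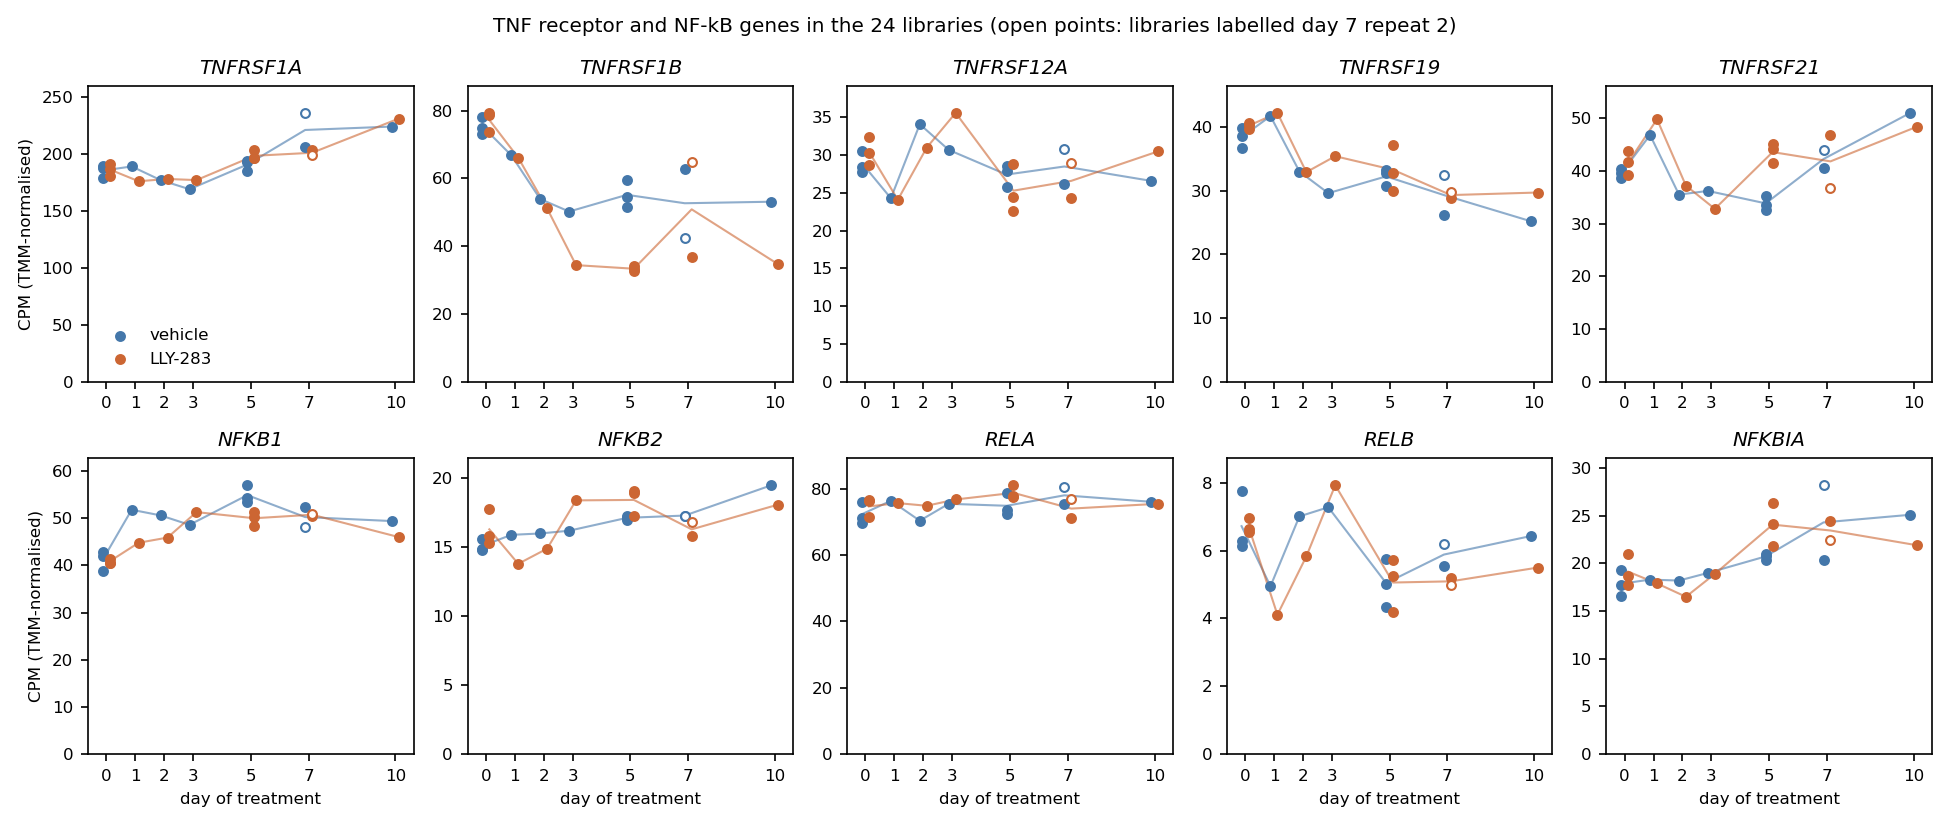
Level of each of the 10 genes in CPM (y axis, from 0) by day of treatment (x axis) in the 24 libraries, with vehicle in blue and LLY-283 in orange, lines through the group means and open points for the libraries labelled day 7 repeat 2. For TNFRSF1B, the LLY-283 libraries lie at 34.4 CPM at day 3, 32.6 to 34.2 CPM at day 5 and 34.6 CPM at day 10, below vehicle on each of these days.

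A test of whether the treatment effect depended on the day used the 22 libraries of days 0 to 7. DESeq2 called 0 of the 10 genes, but gave no adjusted p for TNFRSF12A, NFKB2, RELB and NFKBIA. Its adjusted p was 0.04 for TNFRSF1B and 0.21 for TNFRSF21. edgeR called 0 of the 10, beside 0.0289% of all genes. By edgeR, 1 of the 10, TNFRSF21, had an unadjusted p under 0.05, beside 3166 of the 20756 genes tested. The adjusted p of edgeR was 0.43 for TNFRSF1B and 0.23 for TNFRSF21. Without both libraries labelled day 7 repeat 2, edgeR called TNFRSF1B and not TNFRSF21. Without LLY-283 day 7 repeat 1, it called TNFRSF21 and not TNFRSF1B. Each of these fits left 1 library in a day 7 group and called many more of all genes than the fit of 22 libraries. The libraries of repeat 2 were left out because each lay nearer the opposite group, so that fit is not independent of the treatment difference.

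The next question was how the genes changed from day 0 to day 5 within each treatment group. The vehicle and LLY-283 changes rest on separate libraries, but they share their day 5 libraries with the treatment comparison at day 5. TNFRSF1B fell in both groups. The log2 change was -0.46 (SE 0.050, adjusted p = 8.7e-09) with vehicle, or -27.5%, and -1.2 (SE 0.047, adjusted p = 2.0e-16) with LLY-283, or -56.3%. In both groups each day 5 library lay below each day 0 library.

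TNFRSF21 fell with vehicle by 0.24 on the log2 scale (SE 0.056, adjusted p = 0.00079), a call that was lost without vehicle day 5 repeat 2 (adjusted p = 0.012). With LLY-283 the log2 difference was 0.09 (SE 0.051, adjusted p = 0.15), and the libraries of the days overlapped. TNFRSF19 fell in both groups, by 0.27 with vehicle (SE 0.057, adjusted p = 0.0003) and by 0.26 with LLY-283 (SE 0.059, adjusted p = 0.00085). Without LLY-283 day 5 repeat 2, the latter call was lost (adjusted p = 0.015). TNFRSF19 stood between 36.7 and 40.6 CPM in the 6 libraries of day 0 and between 29.9 and 37.2 CPM in the 6 of day 5.

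NFKB1 rose in both groups. It had 42, 42.9 and 38.8 CPM in vehicle and 40.6, 40.6 and 41.4 CPM in LLY-283 libraries at day 0, all below each day 5 library of the same group. The log2 change was 0.40 (SE 0.053, adjusted p = 3.9e-07) with vehicle and 0.31 (SE 0.047, adjusted p = 4.5e-06) with LLY-283. NFKBIA rose with LLY-283, by a log2 change of 0.34 (SE 0.075, adjusted p = 0.00044). With vehicle its log2 difference was 0.20 (SE 0.075, adjusted p = 0.029).

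RELB had log2 differences of -0.44 (SE 0.14, adjusted p = 0.014) with vehicle and -0.40 (SE 0.13, adjusted p = 0.013) with LLY-283. Both missed the threshold. Of 15 alternative settings, 4 called the difference with vehicle and 3 that with LLY-283. The adjusted p ran from 0.0071 to 0.11 with vehicle and from 0.0051 to 0.098 with LLY-283. Among the settings that called it were those without vehicle day 5 repeat 3 (adjusted p = 0.0089) and without LLY-283 day 5 repeat 1 (adjusted p = 0.0051). The day 5 libraries of RELB lay below its day 0 libraries in both groups. TNFRSF1A rose slightly with LLY-283, by a log2 change of 0.11 (SE 0.033, adjusted p = 0.0067), a call that held in 4 of 15 alternative settings. With vehicle its log2 difference was 0.02 (SE 0.037, adjusted p = 0.61). TNFRSF12A, NFKB2 and RELA were not called in either group. For TNFRSF12A with LLY-283, the log2 difference was -0.24 (SE 0.082, adjusted p = 0.023). Several alternative settings called it, among them the replicate block and the fit without LLY-283 day 5 repeat 3.

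With vehicle 4 of the 10 genes were called (1 higher, 3 lower), beside 38.9% of all genes (22.2% higher, 16.7% lower). With LLY-283 5 of the 10 were called (3 higher, 2 lower), beside 42.4% of all genes (22.9% higher, 19.5% lower). The days did not overlap for 7 of the 10 genes in each group, beside 57.2% of all genes with vehicle and 57.6% with LLY-283. Of all genes called with vehicle, 57.1% were higher at day 5 with TMM scaling and 46.2% with scaling by library size alone.

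**Figure D4:**
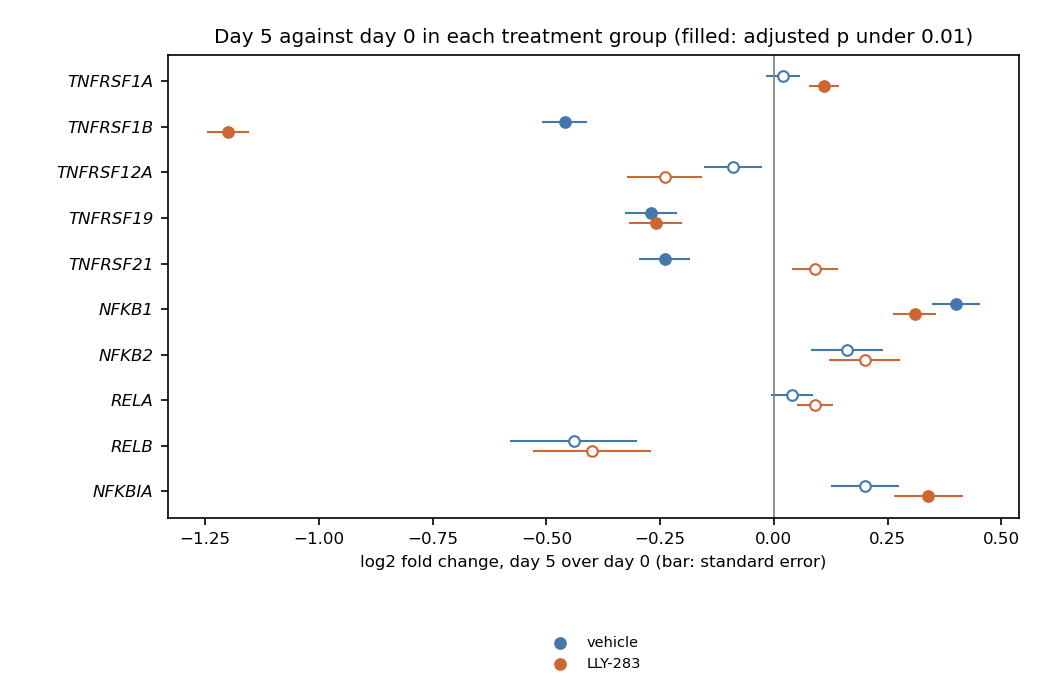
Log2 fold change of day 5 over day 0 for the 10 genes with vehicle (blue) and LLY-283 (orange), with bars for the standard error and filled points for an adjusted p under 0.01. TNFRSF1B lies at -0.46 with vehicle and -1.2 with LLY-283, while NFKB1 lies at 0.40 and 0.31.

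Whether the changes differed between treatment groups was tested directly, as an interaction in the 12 libraries of days 0 and 5. The change of TNFRSF1B with LLY-283 was lower than that with vehicle by a log2 value of -0.72 (SE 0.070, adjusted p = 2.0e-08). That of TNFRSF21 was higher by 0.33 (SE 0.075, adjusted p = 0.0014). For NFKBIA the difference was 0.15 (SE 0.11, adjusted p = 0.34), so its call with LLY-283 and not with vehicle is not shown to differ between groups. Of the 10 genes 2 were called, beside 14.9% of all genes (6.78% higher, 8.15% lower).

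The wider pathway was described at day 5 with lists drawn from general knowledge, but chosen with earlier results of these data known. In these lists, rose and fell mean higher and lower with LLY-283 than with vehicle at day 5, not a change over time. Of 18 TNF family ligands, 6 passed the filter on low counts. TNF did not, with at most 0.105 CPM in any of the 24 libraries, nor did LTA, the other ligand of TNFRSF1A and TNFRSF1B, with at most 0.166 CPM. TNFSF12, which encodes TWEAK, reached at most 0.0739 CPM, and it overlaps a readthrough gene with TNFSF13, so its counts are uncertain. Of the 6 ligands tested, 1 rose and 0 fell, beside 12% of all genes that rose and 14.1% that fell at day 5. That gene was TNFSF13B, which encodes the B cell factor BAFF, at 14 ± 1.43 CPM for vehicle and 17.8 ± 0.407 CPM for LLY-283 libraries (SD, n = 3), giving a log2 fold change of 0.37 (SE 0.086, adjusted p = 0.001). The costimulatory ligand gene TNFSF4 had a log2 difference of -0.35 (SE 0.16, adjusted p = 0.096), and TNFSF13, which encodes APRIL, one of -0.34 (SE 0.18, adjusted p = 0.14). The median log2 fold change of the 6 was -0.17.

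Of 24 other receptors of the family, 11 were tested, of which 4 rose and 1 fell (45.5% called, beside 26.1% of all genes), with a median log2 fold change of 0.26. NGFR, the low-affinity neurotrophin receptor, fell from 52.2 ± 3.85 to 24.9 ± 0.840 CPM, by 1.04 on the log2 scale (SE 0.061, adjusted p = 3.4e-13). TNFRSF10B, a receptor for the death ligand TRAIL, rose by 0.41 on the log2 scale, with 112 ± 0.890 CPM in vehicle and 146 ± 4.88 CPM in LLY-283 libraries (SE 0.038, adjusted p = 2.1e-09). EDA2R, a receptor for ectodysplasin, rose by 1.04, from a lower level of 5.86 ± 1.20 CPM to 11.8 ± 0.794 CPM (SE 0.13, adjusted p = 2.6e-07). TNFRSF10B and EDA2R are both known p53 targets, and a part of p53 in their rise was not tested. The study states that its own transcriptome analysis found no changes in the p53 pathway. The other receptors that rose were TNFRSF11B, a decoy receptor, and TNFRSF25, which has a death domain. From day 0 to day 5, TNFRSF25 was called lower with vehicle and was not called with LLY-283.

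All 26 adaptors and IkB kinases were tested, of which 2 rose and 5 fell (26.9% called, near the 26.1% of all genes), with a median of -0.03. IKBKB, the catalytic IkB kinase of the canonical pathway, rose by 0.57, with means of 41.5 ± 1.39 and 60.5 ± 5.58 CPM (SE 0.066, adjusted p = 2.2e-06). BIRC2, a ubiquitin ligase recruited to TNF receptors, rose by 0.22 (SE 0.043, adjusted p = 0.00018). TRAF2, the adaptor that recruits it, was lower with LLY-283 by 0.35 on the log2 scale (SE 0.073, adjusted p = 0.00037). From day 0 to day 5, TRAF2 was called higher with vehicle and was not called with LLY-283. FADD, TRAF3, TRAF4 and IKBKE also fell.

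Of 20 other Rel and IkB proteins and negative regulators, 19 were tested, of which 2 rose and 2 fell (21.1% called, beside 26.1% of all genes), with a median of -0.06. CYLD, a deubiquitinase that limits NF-kB signalling, was higher with LLY-283 by 0.37 (SE 0.078, adjusted p = 0.00038). From day 0 to day 5, CYLD was called lower with vehicle and was not called with LLY-283. The A20-binding protein gene TNIP2 rose by 0.19 (SE 0.056, adjusted p = 0.0076). NFKBIB, a further IkB protein, fell by 0.27 on the log2 scale (SE 0.063, adjusted p = 0.0012). OTULIN, a deubiquitinase of linear chains, was lower with LLY-283 by 0.19 on the log2 scale (SE 0.055, adjusted p = 0.0067). From day 0 to day 5, OTULIN was called higher in both groups.

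Of 30 genes listed as NF-kB targets, 29 were matched and 19 tested, of which 4 rose and 1 fell (26.3% called, near the 26.1% of all genes), with a median of 0.20. ICAM1, an adhesion molecule, rose by 0.41, with means of 34 ± 0.657 and 44.5 ± 2.57 CPM (SE 0.057, adjusted p = 1.4e-06). TNFAIP6, a hyaluronan-binding protein, rose by 1.29 (SE 0.20, adjusted p = 1.5e-05) from 2.24 ± 0.403 CPM. TNFAIP2 was higher with LLY-283 by 0.43 (SE 0.082, adjusted p = 0.00013), while from day 0 to day 5 it was called lower in both groups. MMP9 also rose and PTX3 fell. The chemokines CXCL1, CXCL2, CXCL3, CXCL8, CXCL10 and CCL20 and the cytokines IL6 and IL1B did not pass the filter, and the highest of their values in any library was 0.887 CPM, for IL6. Of the other listed chemokines, CCL2 had 22.4 ± 3.39 CPM with vehicle and 25.2 ± 3.31 CPM with LLY-283. Neither CCL2 (adjusted p = 0.27) nor CCL5, at 0.595 CPM with vehicle, was called at day 5. From day 0 to day 5, CCL2 was called higher in both groups. Some of these targets are also controlled by other factors, and the lists share 4 genes.

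**Figure D5:**
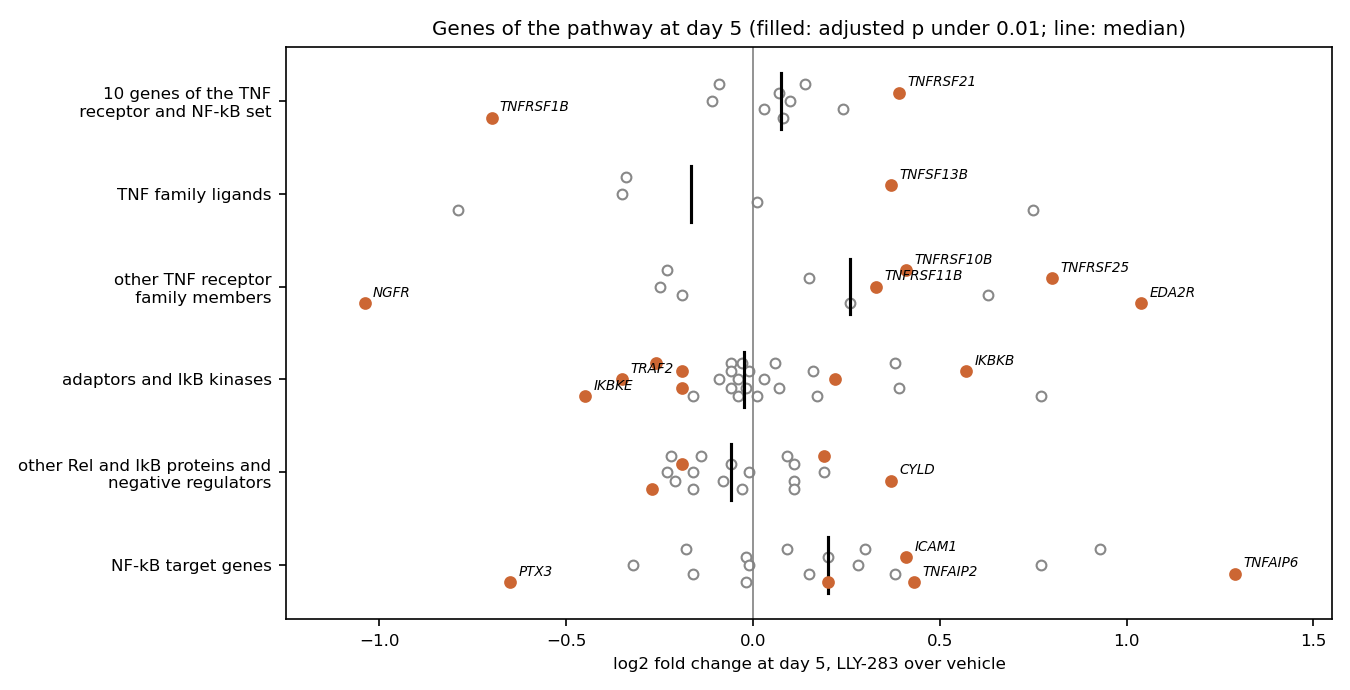
Log2 fold change of LLY-283 over vehicle at day 5 (x axis) for the 10 genes and the tested genes of 5 wider lists (rows), with filled points for an adjusted p under 0.01 and black lines for list medians. Called genes lie on both sides of 0 in every row but that of the ligands, from NGFR at -1.04 to TNFAIP6 at 1.29.

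These list counts moved when single libraries were left out, and so did the calls over all genes. The main fit called 4304 of all genes. The fits without a library called from 3193 (without LLY-283 repeat 2) to 4423 (without LLY-283 repeat 1). When each day 5 library was left out in turn, 0 to 1 ligands and 2 to 3 other receptors rose, and 2 to 5 adaptors and kinases fell. The 2 receptors were left without vehicle repeat 1 and without LLY-283 repeat 2, and the 2 adaptors and kinases without LLY-283 repeat 3. Of the other Rel and IkB proteins and negative regulators, 1 to 3 rose and 1 to 3 fell, with 1 rising in each fit but that without LLY-283 repeat 3, and 1 falling in each but those without vehicle repeat 2 and without LLY-283 repeat 1. TNFSF13B was not called without vehicle repeat 1 or without vehicle repeat 2. Among the target genes, 4 to 5 rose and 1 to 2 fell.

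Over the 24 libraries, the genes whose log2 CPM was most like that of TNFRSF1B among 11530 genes included RBM38 (Pearson r = 0.967) and POLR1E (0.956). For TNFRSF21 they were AGT (0.859), TAOK3 (0.849) and the identifier ENSG00000215861 (0.845), and for NFKBIA they were CAMLG (0.926), H2BC12 (0.913) and DHX32 (0.900). These coefficients describe libraries that share treatment groups, days and repeats, and they carry no test.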

How the data were processed

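RNA of HSJD-DIPG-007 cells was measured in 24 libraries, 12 from each treatment group, grouped by treatment and day from the labels. After trimming, the authors ran kallisto against the human transcriptome of hg38 and deposited 1 estimated count for each gene in a library. These are whole numbers without normalisation. The kallisto version, the annotation release and the strand setting are not given in the sources used here. Of 58676 identifiers, 58207 were matched to a symbol of GENCODE on GRCh38. Library totals lay between 13835205 and 23190369.

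Estimated counts were tested with edgeR 4.0.16 in R 4.3.3, with TMM scaling, filterByExpr by treatment and day (by treatment alone over days 1 to 3), robust quasi-likelihood fits and Benjamini-Hochberg adjustment over all genes tested, with calls at an adjusted p under 0.01. Days 1 to 3 used day as a factor. Log2 CPM had a prior count of 2. The canonical transcript of each gene gave its length. Alternatives were DESeq2 1.42.0 (the tool of the study), edgeR with the size factors of DESeq2 or with library size alone, no filter on low counts or a minimum of 10 counts in every library, an adjusted p under 0.05, a block for the repeat number, a shared fit of 22 libraries, and leaving out each library, each of days 1 to 3, or both libraries labelled day 7 repeat 2. A shared fit of 20 libraries, without those both, was added after the values were seen. Where a group was left with 1 library, it was assumed to vary like the others.

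The genes and lists were chosen with earlier results of these data known. All 10 genes are named, with the 3 genes of smallest p at day 5 in each wider list and the 3 genes most correlated with each of the 3 genes of smallest p, of which 1 is not reported here. TNF, LTA, TNFSF12, IL6, CCL2, CCL5 and the further genes given by direction or as not passing the filter were named outside that rule, after their values were seen. The symbol SOD2 was not matched. The main edgeR fit of each comparison was tested on simulated data, and the alternatives were not. The simulated libraries shared a common mean profile apart from the genes set to change. Fold changes in the text are on the log2 scale. Promoters came from RefSeq on GRCh38.p14. TNFRSF12A and RELB had no entry in the promoter table used here.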

Additional observations from a re-analysis of the deposited data

Results flagged for a closer look

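The change of TNFRSF1B from day 0 to day 5 differed between treatment groups in the interaction test, by a log2 value of -0.72 with LLY-283 against vehicle (adjusted p = 2.0e-08 by edgeR's quasi-likelihood test). It was called in each of 12 fits that left out a library, where the value lay between -0.78 and -0.67.

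The change of TNFRSF21 differed in the same test, by 0.33 (adjusted p = 0.0014), and lay between 0.29 and 0.36 in those fits. The vehicle libraries fell by 0.24 on the log2 scale between the days, while the LLY-283 libraries had a log2 difference of 0.09 that was not called.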

How the results depend on the processing

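At day 5, TNFRSF21 was called under each of 15 alternatives and TNFRSF1B under 14. The exception was the shared fit of 22 libraries, which called 1 of the 10 genes (TNFRSF1B -0.73, adjusted p = 0.018) and which includes the libraries labelled day 7 repeat 2. Without those, a shared fit of 20 libraries, chosen after seeing the data, called 2. From day 0 to day 5, the 22-library fit called 1 of the 10 genes with vehicle, beside 5095 of 20756 genes tested. With LLY-283 it called 3, beside 5493 of 20756. At day 5 it called 2042 of all genes against 4304. With an adjusted p under 0.05 in the main fit, 8 were called for the LLY-283 change, beside 9041 of 17341 genes tested. Leaving out a library gave 2 to 3 genes at day 5, beside 3193 to 4423 of all genes. The LLY-283 change had 3 to 5 (3 without LLY-283 day 5 repeat 2, where TNFRSF1A and TNFRSF19 were lost), beside 6389 to 7233 of all genes. For the vehicle change, leaving out a library gave 3 to 5, beside 5624 to 6114 of all genes. For the interaction over days 0 to 7 it gave 0 to 1, and 1 without both libraries labelled day 7 repeat 2, where 2002 of all genes were called against 6. DESeq2 called 249 of all genes in that test. Over days 1 to 3, 256 of all genes were called without day 3 and 517 without a filter, against 0. At day 0, 56 of all genes were called without a filter, against 3. Directions were followed for the 10 genes at day 5, and for some of them in the changes from day 0 to day 5 and their difference. Those at day 0 and over days 1 to 3 were not followed. Among the differences followed, directions turned only for those that had not passed the test. These were TNFRSF19 (-0.02 to 0.14) and RELB (-0.08 to 0.14) at day 5 when a library was left out, and TNFRSF1A from day 0 to day 5 with vehicle (-0.03 with library size alone, -0.001 with at least 10 counts in every library). The cause of these shifts was not tested. Libraries with the same repeat number did not deviate together, with correlations between -0.0502 and 0.0531, so the numbers give no pairing. With the replicate block, 2 of the 10 genes were called at day 5 (4401 of all genes) and 0 at day 0 (6 of all genes). The vehicle change had 4 (6490 of all genes). The LLY-283 change had 6, with TNFRSF12A added (7918 of all genes, against 7353 in the main fit). The difference of these changes had 2 (2435 of all genes), and the interaction over days 0 to 7 had 0 (1 of all genes). No paired analysis beyond the use of day as a factor was possible over days 1 to 3, because each day has 1 library a group. Of the other values, for single genes and list counts, 495 were unchanged in call or within 1.5 times, 36 list counts moved by more, 12 gene differences passed the threshold that had not and 18 no longer passed it. Depth limits RELB most, at 66 to 160 counts a library.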
